A study of Mus musculus with 24 samples.

Results

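Neuroblasts are immature neurons that still migrate, and postmitotic neuroblasts have left the cell cycle. In the adult mouse forebrain they arise from progenitors in the wall of the lateral ventricle, next to the striatum, and move in chains along the rostral migratory stream to the olfactory bulb, where most become GABAergic granule or periglomerular interneurons. Doublecortin (Dcx) binds microtubules in such cells, and the homeobox factors Dlx1 and Dlx2 drive their GABAergic identity. A dissection of dorsal striatum can carry tissue of this ventricular wall.

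Postmitotic neuroblasts were taken here from single cells of dorsal striatum by a count rule on unique molecular identifiers (UMIs, each a counted RNA molecule). A cell qualified with at least 1 UMI of Dcx, at least 2 of Igfbpl1 and Sox11 together, at least 1 of Dlx1 and Dlx2 together, and 0 of the cell cycle genes Top2a, Mki67, Cdk1, Rrm2 and Ube2c. It also needed at least 1000 UMIs, at least 500 genes and at most 20% mitochondrial UMIs. The rule selected 3382 of 53354 passing striatal cells, which is 6.34%, out of 103715 passing cells in the series. Members were thus selected on the UMI counts of these genes, whose levels are given as a description, with no test.

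Mice carrying an activity-dependent Cre and the Ai9 reporter were trained on a forelimb reaching task. Arc-CreER::Ai9 mice were used for dorsal striatum and Fos-CreER::Ai9 mice for motor cortex, so region and Cre driver cannot be told apart. Early mice had 2 days of training, late mice had 8, and control mice received 4-hydroxytamoxifen without training. All were collected 3 days after labelling, and no group carried a gene deletion. Every stage and region had 2 pools, each of 1 male and 1 female, dissociated with papain after dissection by hemisphere and sequenced with 10x Genomics 3' kits of version 2 or 3. The matrix of the right hemisphere of striatal control replicate 1 was not analysed here, and that pool rests on its left hemisphere.

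The kit was not stated per library. Cell barcodes shared between libraries placed them in 2 classes, called A and B, with 1.31 and 0.261 shared barcodes per 1000000 pairs of barcodes within a class and 0.024 between classes, as means over pairs of libraries. Single pairs overlapped, at 0.789 to 1.75 within A, 0.036 to 0.565 within B and 0 to 0.437 between classes, so the class is an inference. Striatal control 1 and late 1 were class A and had 1 batch label, and the other 4 striatal pools were class B. Of these, control 2 and early 1 shared a batch label, and early 2 and late 2 had a different one each, so that stage and batch cannot be told apart between late and control within class B. The fits have no term for it. Neuroblasts were shallow cells, with a median of 1890 UMIs over all pools. Their median by pool was 1490 UMIs in control 1, 2006 in control 2, 2383 in early 1, 1808 in early 2, 1270 in late 1 and 2012 in late 2, so the class A pools were the least deep. Median mitochondrial shares were 1.30% and 1.38% in the class A pools and 3.61% to 4.55% in the class B pools. Only 1 barcode was carried by neuroblasts of more than 1 library, and none by both hemispheres of a pool.

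The rule sat within a continuum of counts. Of the members, 1089 had exactly 1 Dcx UMI, and 1112 further cells met all other conditions at 0 Dcx UMIs. On the Dlx condition 1266 members had exactly 1 UMI and 1501 cells missed only this condition. Cycle genes alone kept out 307 cells with 1 such UMI and 1223 cells with 2 or more. Members under 1100 UMIs numbered 156.

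Other striatal cells served for comparison, likewise chosen by counts. Cycling progenitors (2318 cells) had at least 1 UMI of Dlx1 or Dlx2 and at least 2 of the cycle genes of the rule. Spiny projection neurons (21235 cells), the main striatal output neurons, had at least 3 UMIs of a set of spiny neuron genes that included Ppp1r1b and Pde10a, and 0 of Dcx and Igfbpl1. Interneurons (841 cells) had at least 2 UMIs of Gad1 and Gad2, at least 3 of Lhx6, Sst, Npy, Pvalb and Pthlh, and 0 of spiny neuron genes such as Ppp1r1b. Microglia (5330 cells) had at least 3 UMIs of C1qa, C1qb, Cx3cr1, P2ry12 and Csf1r and 0 of Gad1, Gad2 and Dcx. Levels of these genes in their own class follow from the choice, and all contrasts between classes are descriptions. The share of all genes that lie above or below another class in every pool is not given here. Counts of list genes are therefore no measure of enrichment.

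Among the 20 genes with the highest ratio to the other passing cells, 15 were not part of the rule. Tubb2b, a tubulin of growing neurites, had a median over pools of 5046 CPM (UMIs of the gene per 1000000 UMIs of the cells) in neuroblasts and 355 CPM in the other cells, with ratios of 10.4 to 19.9. Sox4, a factor of newborn neurons, had 2367 against 287 CPM. Stmn2, which acts on growth cone microtubules, had 2087 against 238 CPM, and Cd24a, a surface glycoprotein of neuroblasts, 489 against 55.3 CPM. The long non-coding RNA 2610307P16Rik had the second highest lowest ratio after Dcx, with 102 against 6.14 CPM. Gm4258, Nrep, Gm17750, Gm14204, Dlx6os1, Sdk2, Mex3a, Dpysl3 and Gm48259 were also among the 15, with lowest ratios over pools of 5.64 to 7.57. The genes were ranked by their lowest ratio over the 6 pools, so that all 20 being above the other cells in every pool follows from the choice.

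The genes of the rule did not have the same level in every pool. Dcx stood at 774 CPM in control 1, 1083 in control 2, 1033 in early 1, 1131.4 in early 2, 798.6 in late 1 and 1129.9 in late 2. Sox11 ran in the same order of pools at 1814, 2300, 2871, 2539, 1692 and 2762 CPM. Igfbpl1 stood at 1070, 731.1, 675, 702.9, 1046 and 850.7 CPM. Dcx and Sox11 were thus lowest, and Igfbpl1 highest, in the class A pools. Dlx1 ranged from 443.2 to 636.4 CPM and Dlx2 from 295.4 to 627.6 CPM, the latter highest in late 1. Dcx lies at chromosome X 143855842 to 143933311 on the minus strand in the GENCODE annotation of GRCm38, Igfbpl1 at chromosome 4 45809468 to 45826923 and Sox11 at chromosome 12 27334264 to 27342574. Dlx1 (71528113 to 71533981) and Dlx2 (71543408 to 71546754) are neighbours on chromosome 2.

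Of 15 neuroblast genes outside the rule, 12 were higher in neuroblasts than in the other passing cells in every pool. The list was chosen with earlier results of these data known, so this is a description and no independent check of the label. Nrep, a gene of growing and regenerating neurons, stood at 475 CPM in neuroblasts, 128 in cycling progenitors, 35.9 in spiny projection neurons and 40.8 in interneurons, as medians over pools. Ncam1, whose polysialylated form coats migrating neuroblasts, stood at 1160, 620, 251 and 559 CPM in the same order. Gad2, an enzyme of GABA synthesis, stood at 479, 156, 642 and 928 CPM, so it lay between progenitors and mature neurons. Dlx6 was lower than in the other cells in every pool, at a median of 51.4 against 71.9 CPM. Markers of glutamatergic neuroblasts were near absent, with Neurod1 and Neurog2 at 0 UMIs in all 6 pools and Eomes between 0 and 6.96 CPM.

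Some members carried genes of another cell type. At least 3 UMIs of another type's marker list were found in 454 members, which is 13.4%. Spiny neuron genes accounted for 224 of these cells, astrocyte genes for 124, interneuron genes for 72, microglial genes for 69, oligodendrocyte genes for 36, precursor genes of oligodendrocytes for 23 and endothelial genes for 12. The 454 cells had a median of 4519 UMIs against 1799 in the rest, and a doublet score marked 41.4% of them against 0.55% of the rest. It marked 49.6% of the cells with spiny neuron genes but 8.33% of the 72 with interneuron genes, whose median was 11284 UMIs. Whether those 72 are doublets or single interneurons was not tested. The share of the 454 cells was 17.6% in control 1, 12.5% in control 2, 14.2% in early 1, 11.5% in early 2, 25.5% in late 1 and 9.88% in late 2, highest in the class A pools. The remaining 2928 cells are called neuroblasts without other types' genes, a definition chosen after the data were seen.

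Several transcripts of other cell types sat mostly in these 454 cells, which for the marker genes themselves follows from how the cells were set apart. Sst, the somatostatin gene of interneurons, had a median of 1749 CPM in all neuroblasts and 33.6 CPM without other types' genes, against 12160 CPM in interneurons. Npy, its partner peptide in many striatal interneurons, had 1160 and 31.4 CPM. The summed level of 7 microglial genes was 110 to 450 CPM in all neuroblasts, 21.2 to 44.0 CPM in the restricted set and 1082 to 2022 CPM in the other cells. The list of 13 spiny neuron genes also holds Meis2, a gene of the neuroblast list, which stood at 788 to 2212 CPM by pool in the restricted set. With Meis2 included, the 13 genes summed to 3094 to 5091 CPM in all neuroblasts, 1224 to 2976 CPM in the restricted set and 7989 to 12078 CPM in the other cells. Htr3a, the serotonin receptor subunit of a class of interneurons, was not lowered in this way and stood at 29.0 CPM in the restricted set, against 26.2 CPM in all neuroblasts and 3.38 CPM in the other cells.

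**Figure D1:**
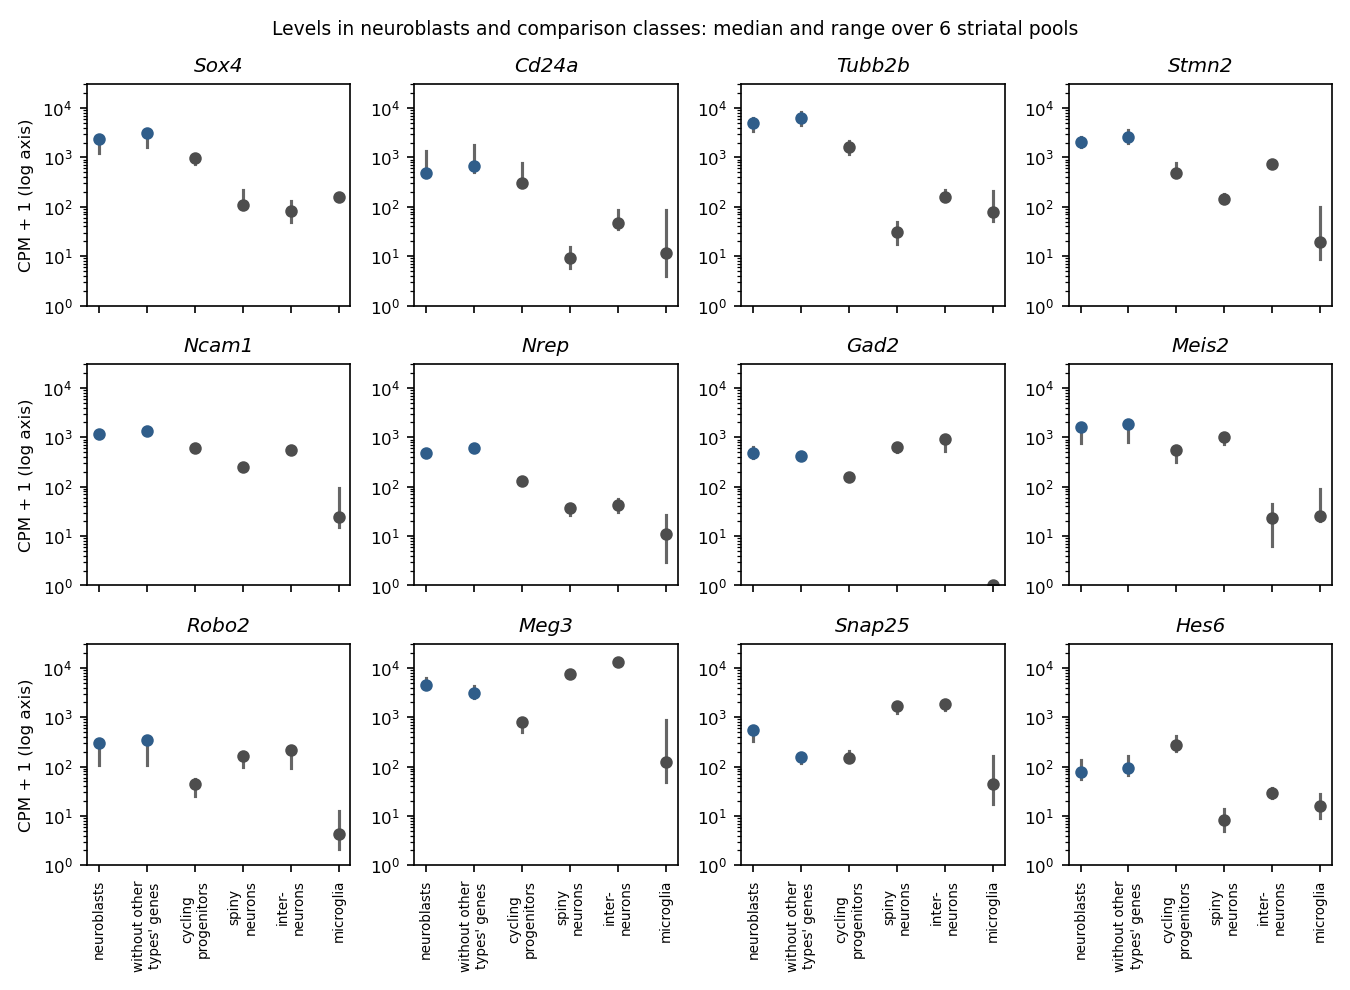
Levels of 12 genes in CPM plus 1 (log axis) in neuroblasts, neuroblasts without other types' genes, cycling progenitors, spiny neurons, interneurons and microglia of dorsal striatum. Points are medians over 6 pools and bars the lowest and highest pool. Tubb2b and Sox4 are highest in neuroblasts, Hes6 in cycling progenitors, and Snap25 in spiny neurons and interneurons.

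Progenitor genes were mostly below their level in cycling progenitors. Of 12 progenitor genes, 10 were lower than in cycling progenitors of the same pool in all 6 pools and none was higher in all 6. Against spiny neurons 9 of the 12 were higher in every pool, and against all other passing cells 3 were higher and 3 lower. Hes6, a factor of neuronal commitment, stood at 132.2, 64.7, 55.3, 67.0, 99.0 and 87.4 CPM in control 1, control 2, early 1, early 2, late 1 and late 2. Cycling progenitors held 203.8 to 409.4 CPM of it, so the ranges of the 2 classes did not meet. The epidermal growth factor receptor Egfr had medians of 8.79 against 70.8 CPM and the zinc finger factor Insm1 54.7 against 215 CPM. Sox2, a stem cell factor, had 276 CPM in neuroblasts, 291 CPM in cycling progenitors and 104 CPM in all other cells.

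Cell cycle genes that the rule did not use were tallied after thinning every cell to 1000 UMIs. At least 2 UMIs of 20 such genes were found in 2.10% of neuroblasts and 92.5% of cycling progenitors. The share was 0.518% in spiny neurons, 0.713% in interneurons and 1.39% in microglia. Without thinning it was 8.25% in neuroblasts, whose median depth was 1890 UMIs, and 3.46% in spiny neurons, at 4273 UMIs. Pclaf, a replication factor, had 8.88 to 42.7 CPM in neuroblasts and a median of 1123 CPM in cycling progenitors.

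Microtubule and growth cone genes were abundant, summing to 22268 to 34855 CPM by pool. Of 14 genes, 11 were higher than in the other passing cells in every pool, and 12 were higher than in cycling progenitors. Tuba1a, a tubulin of migrating and growing neurons, had a median of 6791 CPM in neuroblasts, 4154 in cycling progenitors and 627 in spiny neurons. Tubb3, the neuronal tubulin, had 1823, 718 and 258 CPM and Map1b, a microtubule-associated protein of young axons, 1784, 633 and 936 CPM. Stmn1 and Marcks, which proliferating cells also hold, were lower than in cycling progenitors in every pool, Stmn1 at 4308 against 5721 CPM. Tubb2b stood at 6307 CPM in control 1, 3351 in control 2, 3578 in early 1, 4483 in early 2, 5725 in late 1 and 5608 in late 2. Cd24a stood at 1325, 513.9, 463.2, 392.7, 1152 and 458.2 CPM in the same order, more than 2 times as high in the class A pools as in any class B pool. The part of the kit in such differences was not tested.

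Genes of migration and guidance were also mostly above the progenitor level, 14 of 18 in every pool. Robo2, a receptor for the repellent Slit that steers the stream, stood at 111.3 CPM in control 1, 322.2 in control 2, 306.1 in early 1, 290.9 in early 2, 105.7 in late 1 and 308.1 in late 2. It was lowest in the class A pools, and its median of 299 CPM compared with 43.7 CPM in cycling progenitors. Erbb4, the neuregulin receptor, stood at 76.5, 194.8, 222.7, 211.1, 42.7 and 139.3 CPM, with a progenitor median of 20.3 CPM. Prokr2, the prokineticin receptor through which the olfactory bulb attracts neuroblasts, stood at 31.3, 73.7, 56.0, 65.4, 11.3 and 38.6 CPM. It was near absent from the neighbouring classes, at medians of 0.238 CPM in cycling progenitors and 1.55 CPM in spiny neurons. The guidance receptor subunit Plxna4 (197 against 23.0 CPM in cycling progenitors) and the adhesion molecule Cdh2 (231 against 137 CPM) were higher in neuroblasts in every pool, and the same held for Epha4, at 207 against 157 CPM. Cxcr4, a chemokine receptor, had a median of 2.44 CPM.

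Genes of mature neuronal function were intermediate. All 9 in the list were higher than in cycling progenitors and lower than in spiny neurons in every pool. Meg3, a long non-coding RNA of neurons, had medians of 808 CPM in cycling progenitors, 4553 in neuroblasts, 7504 in spiny neurons and 13150 in interneurons. Snap25, of the synaptic release machinery, had 150, 563, 1699 and 1810 CPM in the same order. Without other types' genes the neuroblast medians were 3083 CPM for Meg3 and 155 CPM for Snap25, near the progenitor level for Snap25 and above it for Meg3.

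Chloride transporters set the effect of GABA on a neuron. Slc12a5, which exports chloride in mature neurons, had a median of 57.8 CPM in all neuroblasts, 10.7 CPM without other types' genes and 252 CPM in spiny neurons. Slc12a2, which imports chloride, had 25.8, 26.9 and 16.4 CPM. By pool it ran from 4.50 CPM in late 1 to 47.0 CPM in late 2, and it was above spiny neurons in 5 of 6 pools. The GABA-A receptor subunit gene Gabra2 stood at 55.5, 23.9 and 178 CPM. All 7 genes of this group were lower than in the other passing cells in every pool.

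Of 10 genes of programmed cell death and survival, 3 were above and 3 below the other passing cells in every pool. Against cycling progenitors none was higher and 3 were lower in every pool. Bax and Bbc3, which promote cell death, were among those above the other passing cells. Bax stood at 238.3, 126.6, 126.4, 148.9, 173.2 and 153.7 CPM in control 1, control 2, early 1, early 2, late 1 and late 2, highest in the class A pools. Its median was 151 CPM in neuroblasts, 227 CPM in cycling progenitors and 134 CPM in the other cells. The survival gene Bcl2 was below the other passing cells in every pool, at a median of 32.8 CPM.

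Transcription factors that mark classes of future olfactory bulb interneurons were well represented. Of 14, 8 were above the other passing cells in every pool. Meis2, a TALE homeobox factor of the lateral ganglionic lineage (chromosome 2, 115863064 to 116065839), stood at 935.8 CPM in control 1, 1746 in control 2, 1671 in early 1, 1639 in early 2, 753.6 in late 1 and 1575 in late 2. Sp9, a zinc finger factor needed for striatal and olfactory neuron development, stood at 393.1, 526.5, 498.1, 511.6, 350.9 and 457.01 CPM. Both were lowest in the class A pools. Pbx3, a partner of Meis factors, had a median of 252 CPM and Etv1, of superficial granule cells, 277 CPM, against 48.4 and 160 CPM in cycling progenitors. Pax6 and Sp8, which mark periglomerular lineages, had medians of 94.4 and 92.4 CPM. Of 8 genes made by mature olfactory interneurons, 7 were above cycling progenitors in every pool in all neuroblasts, and the 8 summed to 262 to 399 CPM by pool without other types' genes. In that set Calb2 had a median of 54.4 CPM, Calb1 of 7.0 CPM and Th, the enzyme of dopamine synthesis, of 1.27 CPM.

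To compare pools at equal depth, cells without other types' genes were thinned to 1000 UMIs and scored for at least 1 UMI of each factor. Pbx3 was found in 21.3% of 239 cells in control 1, 43.2% of 803 in control 2, 27.2% of 404 in early 1, 31.9% of 699 in early 2, 6.32% of 190 in late 1 and 21.9% of 593 in late 2. Tshz1, a zinc finger factor of migrating granule cell precursors, followed at 12.1%, 30.0%, 25.5%, 22.2%, 5.79% and 16.7%. Foxp2, a forkhead factor also found in spiny neurons, stood at 10.0%, 22.8%, 19.6%, 19.0%, 5.26% and 13.3%. For these 3 factors late 1 was lowest and control 2 highest, and within each kit class the late pool was below the control pool. Meis2 had the same order, at 59.8%, 84.1%, 81.2%, 82.3%, 52.1% and 79.4%. Sp9, which ran from 38.4% in late 1 to 46.6% in early 2, was also lower in the late than in the control pool of each class. Etv1 was lower in late 1 than in control 1, at 12.6% and 17.2%, but higher in late 2 than in control 2, at 27.2% and 24.4%. Pax6 went the other way, at 10.5%, 7.60%, 11.4%, 6.58%, 11.6% and 11.3%, with the late pool above the control pool in each class. Sp8 stood at 3.35% in control 1 and 8.42% to 14.4% elsewhere. Foxp2 was named after its values had been seen.

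**Figure D2:**
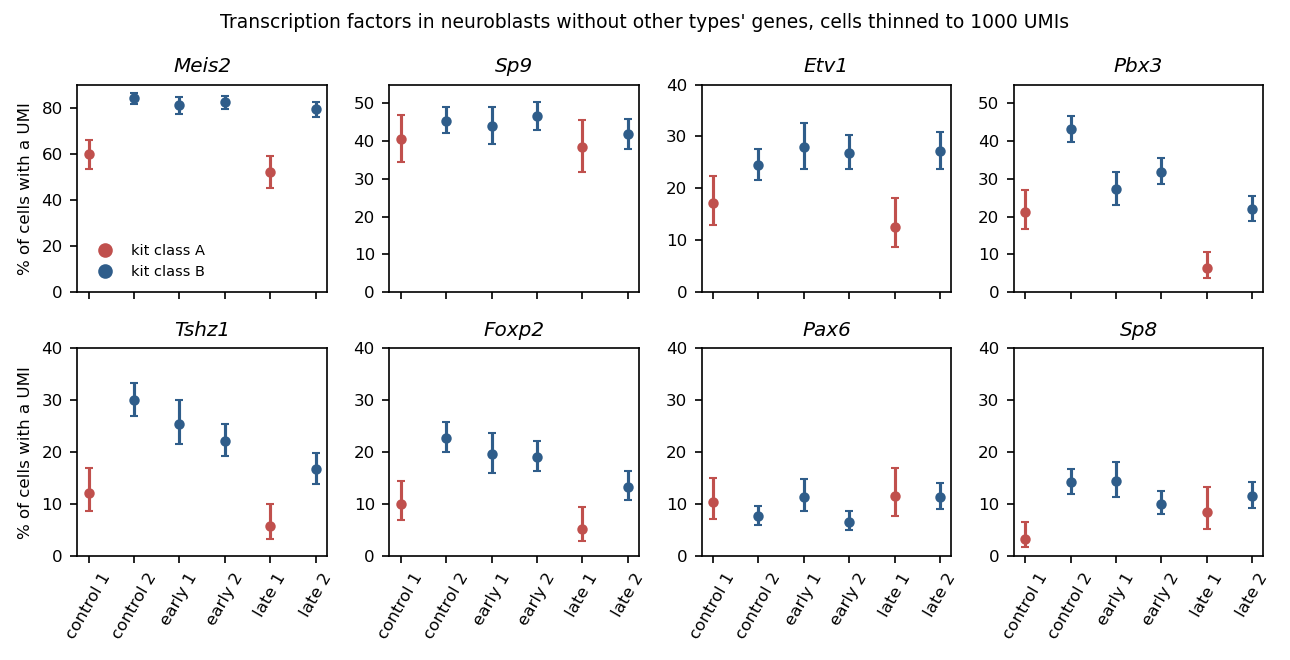
Percent of neuroblasts without other types' genes that held at least 1 UMI of each of 8 transcription factors after thinning to 1000 UMIs, by pool, with 95% Wilson intervals that cover counting error only. Pbx3, Tshz1, Foxp2 and Meis2 are lowest in late 1 and highest in control 2. Pax6 lies between 6.58% and 11.6% in every pool and is higher in the late than in the control pool of each kit class.

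Factors were not spread independently over these cells. In the thinned cells Pbx3 and Foxp2 were found together in 262 cells where the product of their shares within each pool gives 166, a ratio of 1.58. Tshz1 and Pbx3 shared 327 cells against 210, and Tshz1 and Foxp2 shared 185 against 121, and these 3 pairs were above the product in all 6 pools. Pax6 behaved in the opposite way. It met Pbx3 in 34 cells against 75.0, Foxp2 in 16 against 44.2 and Tshz1 in 35 against 55.7, below the product in all 6 pools. Pax6 and the nuclear receptor Nr2f1 shared 49 cells against 19.9, above the product in 5 of 6 pools, and Sp8 and Pax6 shared 44 against 30.2. These are descriptions of sparse counts over 74 pairs that reached 10 expected cells, and cells of a pool share their library.

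Cells with and without a Pbx3 UMI differed in the same direction in every pool for several other genes. Among 873 cells with Pbx3 and 2055 without, Meg3 was found in 91.4% and 62.2%, Erbb4 in 28.6% and 14.2%, Prokr2 in 13.4% and 4.62%, and the synaptic vesicle gene Syt1 in 12.9% and 5.94%. The reverse held for Hes5, a Notch target, at 0.115% and 3.36%, for the receptor Notch1 at 1.83% and 5.65%, for Pax6 at 3.90% and 11.3% and for Tubb3 at 76.4% and 84.4%. No test was made of these shares, since Pbx3 was picked after its values had been seen.

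Neuroblasts made up 4.71% of passing cells in control 1, 11.8% in control 2, 5.10% in early 1, 8.52% in early 2, 2.18% in late 1 and 7.13% in late 2. The Wilson 95% intervals, which cover counting error only, were 4.21% to 5.27%, 11.1% to 12.6%, 4.67% to 5.57%, 7.97% to 9.11%, 1.93% to 2.46% and 6.62% to 7.67%. Control 2 was highest and late 1 lowest, and the stages overlapped. Control pools had a mean share of 8.27%, early pools of 6.81% and late pools of 4.65%. Early pools were 1.45 percentage points below control (p = 1) and late pools 3.61 points below (p = 0.667) in two-sided exact permutation tests, which cannot go below 0.333 with 2 pools against 2. The mean control share exceeded the mean over all trained pools by 2.53 points (exact permutation p = 0.467, smallest possible 0.0667). This difference rested on control 2, since without it control was 1.02 points below trained. That setting leaves only a class A control pool against trained pools of both classes. With all pools the difference was 1.35 points at a minimum of 2000 UMIs, 1.08 when cells were thinned before the rule and 0.849 with a stricter gene rule.

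Within each kit class the control pool had the highest share. The control share was 2.16 times that of late 1 in class A and 1.71 times the mean of the 3 trained pools in class B. A two-sided exact permutation within kit class gave p = 0.25, where 0.13 is the smallest possible. Shares depend on the other cells recovered as well. Per 100 spiny neurons there were 15.1 neuroblasts in control 1, 33.5 in control 2, 11.5 in early 1, 23.9 in early 2, 4.21 in late 1 and 21.1 in late 2. Per cycling progenitor there were 0.812, 2.86, 1.72, 1.97, 0.451 and 1.65 neuroblasts, so the class A pools held fewer neuroblasts than progenitors and the class B pools more. Ependymal cells, which line the ventricle, made up 1.61%, 0.953%, 2.13%, 2.75%, 3.75% and 2.90% of passing cells, lowest in the pool with most neuroblasts. The part of the dissection plane in the shares was not tested.

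**Figure D3:**
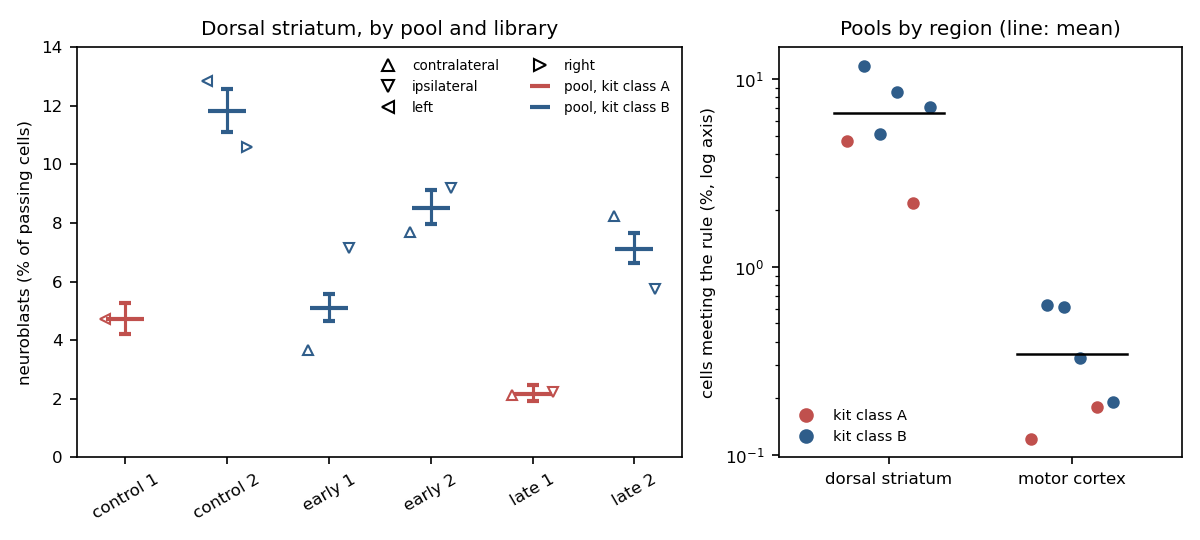
Left, percent of passing striatal cells that were neuroblasts in each pool, with 95% Wilson intervals that cover counting error only, and values of single hemisphere libraries; colours give the kit class. Right, the same percent by pool in dorsal striatum and motor cortex on a log axis; striatal pools lie at 2.18% to 11.8% and cortical pools at 0.122% to 0.631%.

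The same rule applied to motor cortex, as a comparison, found 169 cells among 50361. The share was 6.58% ± 3.36 (SD, n = 6 pools) in striatum and 0.344% ± 0.226 in cortex, a difference of 6.23 points. The ranges did not overlap. The rule was written on striatal libraries, so the difference is given as a description and no test of it is read. The cortical cells had a median of 7895 UMIs, over 4 times the striatal value. When every cell was thinned to 1000 UMIs before the rule was applied, 1795 striatal and 22 cortical cells remained. Among cells without other types' genes there were 2928 in striatum and 60 in cortex.

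Hemispheres labelled contralateral and ipsilateral were compared within trained pools. The contralateral and ipsilateral shares were 3.67% and 7.14% in early 1, 7.70% and 9.21% in early 2, 2.13% and 2.23% in late 1, and 8.23% and 5.75% in late 2. The contralateral share was lower in 3 of 4 pools, with a mean log2 ratio of -0.19 (two-sided exact sign-flip permutation p = 0.625, smallest possible 0.13). At a minimum of 2000 UMIs and 1000 genes a cell the mean was -0.67 (exact permutation p = 0.25). In untrained control 2 the right and left hemispheres had 10.6% and 12.8%.

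Expression in neuroblasts was then compared between stages on UMIs summed per pool, with edgeR's quasi-likelihood test, the kit class as covariate and Benjamini-Hochberg adjustment over 11809 genes. With 2 pools a stage the fit had 2 residual degrees of freedom. Only 4 genes passed an adjusted p of 0.05 in early versus control (0.0339% of genes tested), 4 in late versus control (0.0339%) and 5 in late versus early (0.0423%). Before adjustment 439, 660 and 723 genes had a p under 0.05.

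Calb2, encoding calretinin of granule and periglomerular cells (chromosome 8, 110137502 to 110168210), was the called gene of this lineage. It stood at 26.1 CPM in control 1, 83.1 in control 2, 123 in early 1, 94.3 in early 2, 11.3 in late 1 and 28.3 in late 2. Both early pools were above both late pools, and both control pools lay below the early pools. Without other types' genes control 2, at 118.5 CPM, lay above both early pools, at 76.4 and 112.4 CPM, and the early versus control log2 difference was -0.27 in place of 0.40. The log2 difference of late from early was -1.85 (SE 0.258, edgeR adjusted p = 0.0308). Over 16 alternative settings it ran from -2.41 to -0.57 and passed the threshold in 9. Without late 2 it was -1.65 and did not pass, and under a rule that asked for more UMIs of the marker genes it was -0.57. The transcript was in 77 cells, and 1 cell held 16.2% of its 635 UMIs. Members with other types' genes held 25.8%. The other passing cells of late 1 and late 2 had 10.6 and 15.9 CPM, those of early 1 and early 2 had 11.9 and 25.8 CPM. Markers of other cell types also differed between late and early neuroblasts. Lower in late were 12 of 13 spiny neuron genes (median -0.40), 6 of 7 interneuron genes (-0.53) and 6 of 6 microglia genes (-0.84), none called. Higher were 4 of 4 oligodendrocyte genes (1.66), 1 of them called, and 3 of 3 ependymal genes (1.25).

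The other called genes were in no list of the neuroblast lineage. CT010467.1 was higher in early than in control by a log2 difference of 2.66 (SE 0.27; edgeR adjusted p = 0.00136), at 1.74, 184, 933, 1335, 9.0 and 382 CPM in control 1, control 2, early 1, early 2, late 1 and late 2. The other passing cells of those pools stood at 3.19, 131, 545, 778, 3.13 and 226 CPM, in the same order from low to high apart from the 2 lowest. The mitochondrial mt-Nd3, called lower in late than in control at -2.34 (SE 0.35, edgeR adjusted p = 0.0474), ran at 17.4, 1063, 431, 253, 13.5 and 175 CPM beside 20.6, 901, 417, 220, 15.4 and 150 CPM in the other cells. Its difference was -0.42 without control 2 and -0.43 without late 2, and neither passed. The histone gene Hist1h2ap, lower in early (-3.79, edgeR adjusted p = 0.000395) and in late (-4.24, adjusted p = 0.00356) than in control, was at 97.2 CPM in control 2 and at 0 to 6.96 CPM in every other pool. Its level in the other cells of control 2 was 129 CPM. For these 3 genes the pools with high values in neuroblasts also had high values in the other cells, and CT010467.1 was higher in neuroblasts than in the other cells in every pool but control 1.

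The remaining calls sat in few cells. Slc5a7, the choline transporter of cholinergic neurons, had UMIs in 16 members, and 95.3% of them were in members with other types' genes. It stood at 0, 32.9, 2.05, 3.75, 2.25 and 58.5 CPM in control 1, control 2, early 1, early 2, late 1 and late 2, and 1 cell held 43.2% of its UMIs. It was called lower in early than in control (-3.39, edgeR adjusted p = 0.0127) and higher in late than in early (4.32, adjusted p = 0.00164), although control 1 lay below both early pools and late 1 between them. Without control 2 the first difference was 0.27 and was not called. Without late 2 the second was 8.19 and was not called. The late pool left in that fit, late 1, lay between the early pools, so this fitted value is not read as a size. Ecel1 had 92.5% of its UMIs in such members, and its early pools, at 0.683 and 1.07 CPM, lay below control 1 and control 2, at 1.74 and 20.4 CPM (-4.40, edgeR adjusted p = 0.0343). Without control 2 that difference was -9.23 and was not called, a fitted value far larger than the gap between control 1 and the early pools. It is not read as a size either. Ecel1 was also called higher in late than in early (4.94, edgeR adjusted p = 0.0164), with late pools at 0 and 30.2 CPM that lay on both sides of the early pools, and the difference was -0.12 without late 2. For the myelin genes Mag and Ugt8a, called higher in late than in control, these members held 97.3% and 94.9%, and 1 cell held 82.0% of the Mag UMIs. The Mag call was lost without control 2, without late 2 and without marked doublets. Hbb-bt, a globin, stood at 478 CPM in control 1, 5.49 in control 2, 21.2 in early 1, 101 in early 2, 13.5 in late 1 and 3.02 in late 2, and 51.5% of its UMIs were in 1 cell. It was called lower in late than in early (edgeR adjusted p = 0.0355), but the fitted log2 difference of -7.15 is far larger than the gap between these early and late levels. The fitted value is not read as a size.

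**Figure D4:**
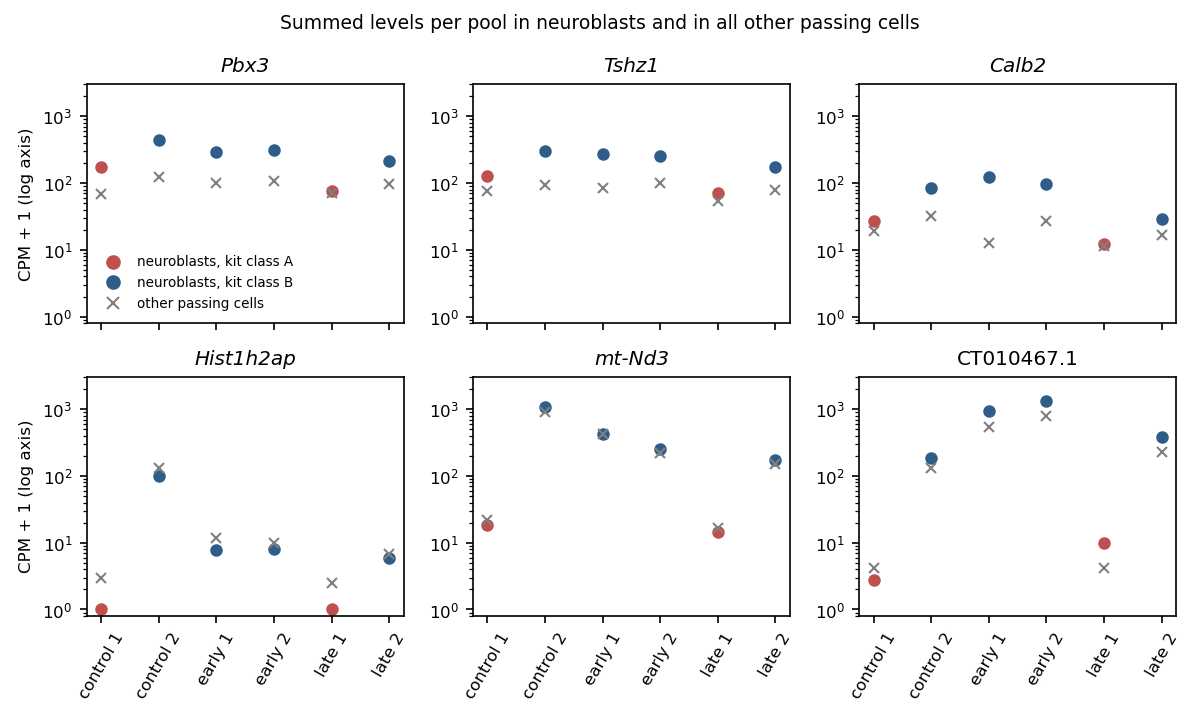
Levels in CPM plus 1 (log axis) of Pbx3, Tshz1, Calb2, Hist1h2ap, mt-Nd3 and CT010467.1 by pool, in neuroblasts (points) and in the other passing cells of the same pool (crosses). Hist1h2ap, mt-Nd3 and CT010467.1 are high in neuroblasts in pools where the crosses are also high. CT010467.1 lies above the crosses in every pool but control 1, and Calb2 in early pools lies above them.

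Of the olfactory bulb factors, Pbx3 had the smallest p in late versus control without passing the threshold. It stood at 170.5 CPM in control 1, 443.8 in control 2, 291.1 in early 1, 316.1 in early 2, 74.2 in late 1 and 212.2 in late 2. In each kit class the late pool was lowest and the control pool highest, and across classes control 1 lay below late 2, so the groups overlapped. The other passing cells stood at 68.3, 122.7, 100.4, 107.6, 70.6 and 97.6 CPM. The log2 difference of late from control was -1.09 (SE 0.181, edgeR adjusted p = 0.0889). Tshz1 differed by -0.79 (SE 0.18, edgeR adjusted p = 0.422) and Foxp2 by -0.43 (adjusted p = 0.863). Other factors went up, Pax6 by 0.53 (SE 0.254, edgeR adjusted p = 0.899) and Sp8 by 0.33 (adjusted p = 0.953). For Pax6 both late pools, at 103.5 and 129.6 CPM, lay above both control pools, at 85.2 and 82.7 CPM. Of the 12 olfactory factors tested, 5 were higher and 7 lower in late than in control. Over the same 16 settings the Pbx3 difference ran from -1.35 to -0.87 and passed the threshold in 7, 4 of which left out control 1, early 1, early 2 or late 1. The difference of Tshz1 passed in 3 settings and that of Foxp2 in 1.

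In the restricted set without other types' genes, an alternative chosen after the data were seen, edgeR called 10 of 9644 genes in early versus control (0.104%), 17 in late versus control (0.176%) and 6 in late versus early (0.0622%). All 17 late genes were lower than in control. They included Pbx3 at -1.32 (SE 0.187, edgeR adjusted p = 0.00109), Calb2 at -1.80 (SE 0.301, adjusted p = 0.00567), Tshz1 at -1.01 (SE 0.185, adjusted p = 0.0127), Runx1t1 at -1.02 (SE 0.197, adjusted p = 0.0204) and Foxp2 at -0.89 (SE 0.188, adjusted p = 0.0491). The Pbx3 level in this set was 210.3, 583.1, 355.6, 393.5, 68.0 and 246.4 CPM, again with control 1 below late 2. Calb2 levels were low, at 24.3 CPM in control 1, 118.5 in control 2, 8.00 in late 1 and 32.5 in late 2, so its groups overlapped too. Runx1t1, a corepressor named after its values had been seen, stood at 91.7, 326.7, 207.1, 232.5, 60.02 and 147.2 CPM. Of the genes called in all neuroblasts, 2 were also called here in each comparison. These fits share their control pools and their kit covariate rests on class A pools of which none was early. Depth differed with the kit, and its part in the result was not tested.

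Over all neuroblasts, groups of neuroblast and neuronal genes gave no calls between late and control pools. Of 14 microtubule genes none was called in late versus control and none had an unadjusted p under 0.05, with a median log2 difference of 0.03 beside -0.01 over all genes tested. Of 17 migration genes tested none was called and 3 had an unadjusted p under 0.05, with a median of -0.06. Of 12 olfactory factors tested none was called, 2 had an unadjusted p under 0.05 and the median was -0.13. Of 7 genes of mature olfactory interneurons tested, 6 were lower, with a median of -0.39. Among these 7, 3 had an unadjusted p under 0.05 and none was called. All 9 mature neuron genes lay below control in late pools, none of them called and none at an unadjusted p under 0.05, with a median of -0.33. Interneuron and spiny neuron markers were also lower on balance, 5 of 7 with a median of -0.89 and 9 of 13 with a median of -0.22. In each of these groups 3 genes had an unadjusted p under 0.05 and none was called. Without other types' genes 7 of 8 mature neuron genes tested lay below control, with a median of -0.34. Interneuron and spiny neuron genes had medians of -0.18 (3 genes) and -0.19 (9 genes) there. The 1 spiny neuron gene called lower was Foxp2, the same call as given above. Markers of other cell types differed unevenly between late and control neuroblasts. The medians were 0.04 for 6 microglia genes, 0.03 for 5 astrocyte genes and 0.98 for 4 genes of oligodendrocyte precursors. All 3 ependymal genes tested were higher, with a median of 2.66, and all 3 endothelial genes were lower, with a median of -3.12, each of the 6 at an unadjusted p under 0.05 and none called. Of 4 oligodendrocyte genes 3 were higher, 1 of them called, with a median of 2.29. Without other types' genes no ependymal or endothelial gene passed the filter on low counts, and 2 oligodendrocyte genes had a median of -0.04. Of 12 progenitor genes 8 lay above, none called, 3 had an unadjusted p under 0.05 and the median was 0.17. Over all genes tested 660 of 11809 had an unadjusted p under 0.05. The missing calls do not show that these groups were alike between stages.

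Of 9 immediate early genes, which neuronal activity induces, 8 were lower in neuroblasts than in the other passing cells in every pool. Against spiny neurons 6 were lower and 2, Jun and Ier2, were higher in every pool, and against cycling progenitors 3 were lower and 2, Junb and Npas4, were higher. Fos stood at 332.2 CPM in control 1, 296.4 in control 2, 247.3 in early 1, 292 in early 2, 371.2 in late 1 and 241.2 in late 2, below the median of 1025 CPM in the other passing cells in every pool. Without other types' genes its median was 151 CPM. Egr1 stood at 175.7, 274.4, 269.9, 337.5, 254.2 and 205 CPM against a median of 804 CPM in spiny neurons. Arc, whose promoter drives the Cre in these mice, stood at 5.22, 10.2, 5.47, 18.2, 42.7 and 7.24 CPM with a median of 84.2 CPM in spiny neurons and 1.70 CPM in neuroblasts without other types' genes. Npas4 stood at 33.1, 43.9, 43.0, 49.8, 13.5 and 28.3 CPM. Late differed from control by -0.08 for Fos, 0.77 for Arc, -0.01 for Egr1 and -0.74 for Npas4 on the log2 scale, and none of the 4 was called by edgeR. Of the 9 genes, 7 were lower in late than in control and 9 lower in late than in early. In each comparison 2 had an unadjusted edgeR p under 0.05 and none was called. Without other types' genes 7 of 8 genes tested were lower in both comparisons, and none was called.

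The Ai9 reporter was read through the deposited features wpre and tdtomato, in effect wpre alone, since tdtomato was in at most 1 neuroblast per pool at the depth compared. After thinning to 1000 UMIs, neuroblasts with a UMI of either made up 5.17% in control 1, 5.01% in control 2, 4.88% in early 1, 4.05% in early 2, 4.31% in late 1 and 5.47% in late 2. Microglia, which should lack the reporter, gave a background of 3.14%, 2.93%, 4.52%, 2.16%, 3.33% and 4.23%. Spiny neurons had 13.5%, 9.12%, 9.33%, 6.99%, 11.0% and 12.2%. Cycling progenitors had 3.92%, 3.43%, 4.38%, 2.99%, 4.78% and 5.26%, above microglia in every pool but early 1. Interneurons had 3.15%, 5.38%, 1.65%, 0.676%, 1.59% and 5.56%, below microglia in early 1, early 2 and late 1. Neuroblasts exceeded microglia in all 6 pools by a mean of 1.43 points (two-sided exact sign-flip permutation p = 0.03125, the smallest possible for 6 pairs). Without other types' genes the excess was 1.38 points and the exact permutation p = 0.0625, with early 1 below its microglia at 4.21%. Median depths were 1890 and 1838 UMIs, and the unthinned shares were 8.24% to 14.4% in neuroblasts and 4.65% to 9.43% in microglia. The deposited feature Neo, at the same thinning, was found in 3.45%, 1.2%, 1.70%, 1.01%, 1.96% and 2.13% of neuroblasts and 1.28%, 1.06%, 0.866%, 1.65%, 1.54% and 0.967% of microglia, so that it too was higher in neuroblasts in 5 of 6 pools. Its part in the reporter result was not tested. The late reporter shares of neuroblasts were the second lowest and the highest of the 6, on both sides of the control shares.

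**Figure D5:**
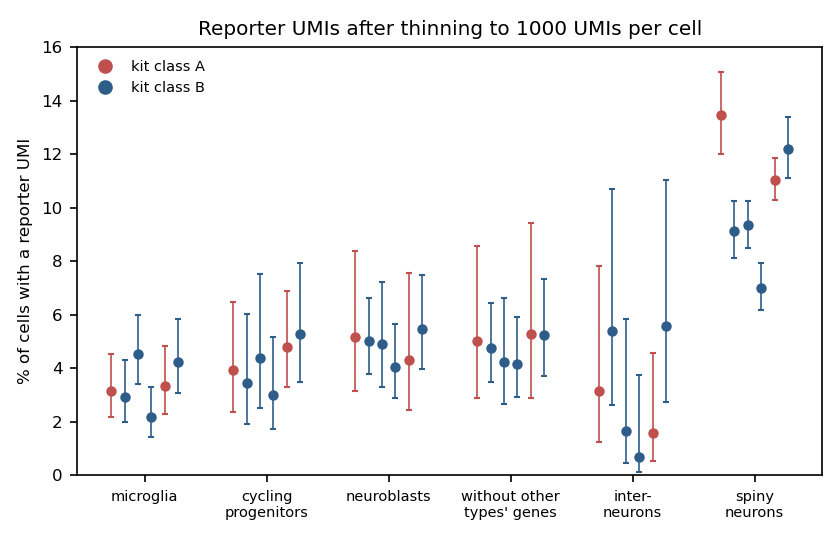
Percent of cells with at least 1 UMI of the reporter features after thinning to 1000 UMIs, by pool, in neuroblasts, neuroblasts without other types' genes, cycling progenitors, interneurons, spiny neurons and microglia. Neuroblasts lie at 4.05% to 5.47%, above microglia of the same pool in all 6 pools, and spiny neurons at 6.99% to 13.5%.

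Between hemispheres, the sums of contralateral and ipsilateral neuroblasts of the 4 trained pools were compared with the pool as a block. Of 8105 genes tested, 13 were called (0.16%), all lower contralaterally, and 308 had an unadjusted p under 0.05. For 10 of the 13, from 68.3% (Cnp) to 99.5% (Hhip) of the UMIs were in members with other types' genes, and the other 3 were the globin genes Hba-a1, Hba-a2 and Hbb-bs. Npy stood contralaterally and ipsilaterally at 247.5 and 1595 CPM in early 1, 729.7 and 1612 in early 2, 702.1 and 1574 in late 1, and 333.5 and 1261 in late 2. The 4 pools went the same way (log2 difference -1.69, edgeR adjusted p = 3.658e-06), and 98.4% of Npy UMIs were in members with other types' genes. Without those members the Npy difference was 0.04. Olig1, a factor of the oligodendrocyte lineage, differed by -2.10 (SE 0.355, edgeR adjusted p = 0.00518), with 93.2% of its UMIs in such members. In the restricted set 3 genes were called (0.0468%), all of them globin genes.

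As each pool held 1 male and 1 female, Xist and Y-linked UMIs were counted. Among thinned cells with only Xist or only Y-linked UMIs, those with Xist made up 91.4%, 78.3%, 88.9%, 74.8%, 81.8% and 72.3% of neuroblasts without other types' genes and 85.0%, 79.3%, 77.6%, 81.7%, 83.4% and 81.0% of spiny neurons. Xist is far more abundant per cell than the Y-linked genes, so the shares do not give the share of females. Before thinning, 7 to 19 neuroblasts per pool carried both Xist and Y-linked UMIs.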

How the data were processed

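Single-cell 3' libraries of dorsal striatum and motor cortex were analysed for 23 of 24 samples. The deposited matrices hold raw counts of UMIs for 54235 features per cell barcode, made by the authors with Cell Ranger 3.1.0 on GRCm38 (mm10) per the submitters' processing notes. The annotation version and the calling of cells were not given in the sources used here. The members and the gene lists were chosen with earlier results of these data known.

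Cells with at least 1000 UMIs, 500 genes and at most 20% mitochondrial UMIs were kept. Possible doublets were kept, and the top 0.8% per 1000 barcodes by Scrublet score (scanpy 1.11.5) were marked for an alternative. UMIs of members were summed per pool (totals of 444524 to 2550955) and fitted with edgeR 4.0.16 (limma 3.58.1, R 4.3.3), with TMM scaling, a filter on low counts and the kit class as covariate. The kit class was inferred from shared barcodes. DESeq2 1.42.0 was an alternative. The script was tested on simulated data. Shares were tested by exact permutation over pools, apart from the share by region, which is given as a description. Thinning drew 1000 UMIs per cell. Python 3.11.15, numpy 2.4.6, scipy 1.17.1, pandas 2.3.3 and matplotlib 3.10.9 were used. The 2 gene IDs of Dlx6os1 were summed for its level among the listed genes.

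Named genes were the 5 most abundant and every called gene of each list, the genes of the rule, up to 10 called genes per comparison whose groups did not overlap, the 20 leading genes (at least 50 CPM in every pool), Fos, Arc, Egr1, Npas4 and the reporter features. Other genes, such as Foxp2, Pax6, Sp8, Runx1t1, Hist1h2ap, mt-Nd3 and Slc5a7, were named after their values had been seen. Results for some genes are not reported here.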

Additional observations from a re-analysis of the deposited data

How the results depend on the processing

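The higher share of neuroblasts in striatum than in cortex, a description, kept its direction in all 17 alternatives. The excess of control over trained pools ran from -1.02 to 6.08 points when 1 pool was left out, and was negative without control replicate 2. It fell to 1.35 at a minimum of 2000 UMIs, 1.08 with cells thinned before the rule and 0.849 with a stricter gene rule. The mean log2 ratio between hemispheres was -0.67 at a minimum of 2000 UMIs, 0.0037 when cells were thinned before the rule, and ran from -0.43 to 0.0652 when 1 pool was left out. The reporter excess over microglia was 1.38 points without other types' genes and 1.39 without marked doublets (exact permutation p = 0.0625 in each), and 1.30 to 1.64 with 1 pool left out, where 0.0625 is the smallest possible p. Counts of called genes for early versus control, late versus control and late versus early were 2, 0 and 2 with DESeq2 (late versus control had 91 at an unadjusted p under 0.05), 64, 109 and 90 without the filter on low counts, and 6, 1 and 2 at a minimum of 2000 UMIs. They were 23, 55 and 40 with a stricter gene rule, 6, 5 and 3 without marked doublets, and 10, 17 and 6 without other types' genes. No gene was called by edgeR without the kit covariate (141, 96 and 297 at an unadjusted p under 0.05) or with pools thinned to the smallest (390, 159 and 296). Leaving out 1 pool gave 27 to 88, 8 to 227 and 12 to 188 calls. With the replicate number as a block there were 2, 1 and 0 calls. The numbers follow accession order and pair nothing: deviations of same-numbered pools correlated at -0.379 for control and early, 0.749 for control and late and -0.190 for early and late, over 3589 genes, and replicate 1 of control and late shared a kit class. Between hemispheres edgeR called 50 genes without the filter, 7 without the replicate block, 0 without marked doublets (234 at an unadjusted p under 0.05), 3 without other types' genes and 7 to 17 with 1 pool left out, and DESeq2 called 2. With 1 pool left out, the difference of early from control ran from -3.94 to 0.27 for Slc5a7 and from -3.83 to 0.45 for Hist1h2ap, the high end without control replicate 2. The difference of late from early ran from -0.12 to 5.31 for Ecel1 and from -2.09 to 10.3 for Mag, the low end without late replicate 2. The cause of these changes was not tested. The smallest pools had 255 and 290 members.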
